A study of Mus musculus with 12 samples.

Results

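The osteocyte genes described here are 7 genes of sclerostin signalling and phosphate handling in bone: Sost, Dmp1, Mepe, Phex, Fgf23, Pdpn and Fam20c. They were taken by gene name, and each name matched 1 row of the 49315 genes in the deposited count table. All 7 passed the filter on low counts and were among the 18161 genes tested. Their levels were read in bulk RNA sequencing of cortical bone from the shaft of the femur, in male mice 12 weeks of age. The 4 groups were catalase knockout mice (Cat-/-) gavaged with ethanol (libraries 4 to 6), Cat-/- mice gavaged with phosphate-buffered saline (PBS; libraries 1 to 3), wild-type mice (Cat +/+) gavaged with ethanol (libraries 10 to 12) and wild-type mice gavaged with PBS (libraries 7 to 9). Ethanol was given on 4 days at 3, 3, 4 and 4.5 g per kg of body weight from a solution of 31.5% by volume, PBS in the same volume, and all mice were killed 6 h after the last dose. Marrow had been spun out of every femur, and each library was a pool of RNA from 2 mice, so the p-values measure the spread between pools and not between single mice.

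Osteocytes are the cells buried in mineralised bone. They secrete sclerostin, the product of Sost, which binds the co-receptors LRP5 and LRP6 on bone-forming cells and blocks Wnt signalling there. They also set phosphate in the blood through the hormone FGF23, whose production is restrained by PHEX, a membrane endopeptidase, and by DMP1, an acidic matrix protein; loss of either causes hypophosphataemic rickets with high FGF23. MEPE is another matrix protein of the same family as DMP1, FAM20C is the Golgi kinase that phosphorylates these proteins and FGF23, and podoplanin (Pdpn) is a membrane glycoprotein of early, still embedding osteocytes and of lymphatic endothelium.

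The promoters of the 4 most abundant of these genes per kb of exon are shown because their levels moved together across the libraries, as described below. The sequences are from RefSeq on GRCm38.p6, run 5′ to 3′ on the strand of the gene from 250 bases before to 50 bases after the annotated start, and matched all 7 genes. They cover chrX:157415237-157415536 (minus strand) for Phex, chr5:104325079-104325378 (plus strand) for Mepe, chr5:104202367-104202666 (plus strand) for Dmp1 and chr11:101966966-101967265 (minus strand) for Sost. Capitals mark every match to 3 words that were searched on both strands. The first is TTTAAA, which reads the same on either strand. The second is TATAAA, which appears as its reverse complement when it lies on the other strand. The last is the RUNX core TGTGGT, which then appears as ACCACA.
Phex: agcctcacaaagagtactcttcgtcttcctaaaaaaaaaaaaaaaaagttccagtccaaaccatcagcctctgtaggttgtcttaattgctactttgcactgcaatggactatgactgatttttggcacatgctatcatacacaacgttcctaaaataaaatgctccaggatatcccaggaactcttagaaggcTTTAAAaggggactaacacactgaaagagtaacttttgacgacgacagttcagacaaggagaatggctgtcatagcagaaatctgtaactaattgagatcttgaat
Mepe: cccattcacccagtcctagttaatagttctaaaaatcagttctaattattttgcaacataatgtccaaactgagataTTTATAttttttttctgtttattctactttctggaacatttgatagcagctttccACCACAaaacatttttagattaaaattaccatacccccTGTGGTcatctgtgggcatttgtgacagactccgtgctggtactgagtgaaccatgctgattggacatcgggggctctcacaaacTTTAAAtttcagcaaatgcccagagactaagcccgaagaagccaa
Dmp1: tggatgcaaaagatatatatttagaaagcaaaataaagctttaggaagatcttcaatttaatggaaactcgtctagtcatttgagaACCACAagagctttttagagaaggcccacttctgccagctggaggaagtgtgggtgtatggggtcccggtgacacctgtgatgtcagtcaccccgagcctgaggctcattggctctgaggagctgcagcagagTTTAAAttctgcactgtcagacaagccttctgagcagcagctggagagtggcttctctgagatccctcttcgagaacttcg
Sost: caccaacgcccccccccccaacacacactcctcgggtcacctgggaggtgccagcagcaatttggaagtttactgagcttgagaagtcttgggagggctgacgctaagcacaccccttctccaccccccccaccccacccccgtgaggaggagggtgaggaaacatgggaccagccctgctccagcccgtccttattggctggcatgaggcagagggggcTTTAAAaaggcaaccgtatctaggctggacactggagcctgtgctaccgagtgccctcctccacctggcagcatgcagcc

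TTTAAA, a word chosen after the sequences had been read, was in 6 of the 8 promoter entries of the 7 genes. It was in 13.1% of the 32544 mouse promoter entries searched, which are called all promoters below. Repeated sequences, entries not of 300 bases and those of a chromosome left out were not among them. Dmp1 has another entry, at chr5:104197325-104197624, which held none of the searched words. TTTAAA began 56 bases upstream of the RefSeq start in Phex, 49 in Pdpn, 31 in Dmp1, 30 in Sost and 27 in Fgf23. In Mepe it began 6 bases downstream of that start. The RefSeq start of Phex lies 26 bases downstream of the start in the gene annotation, and that of this Dmp1 entry 4 bases downstream. Between 60 and 20 bases upstream, 2.26% of all promoters held the word. That window encloses the upstream matches of the members and leaves out the Mepe match, so this share carries no test. The RUNX core, the word bound by the osteoblast regulator RUNX2 and its relatives, was found in Mepe on both strands and in Dmp1 on the minus strand, and in 16.7% of all promoters. TATAAA was found in Mepe alone among the 7 genes, 173 bases upstream, and in 13.6% of all promoters. A cAMP response word, TGACGTCA, was found in 1.8% of all promoters and was not in these windows. The Fam20c window held none of the searched words and had a GC content of 80.7%, against 38.7% in both Phex and Mepe; its RefSeq start lies 567 bases from the start in the gene annotation. These matches describe letters and do not show binding.

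Library totals ran from 19950222 to 28789308 counts. Cat, the deleted gene, had 69.0 to 74.2 counts scaled to the library total (CPM) in the Cat-/- libraries with ethanol and 65.9 to 70.1 CPM with PBS, against 144 to 172 CPM in wild type with ethanol and 128 to 175 CPM with PBS. Its transcript was therefore lower in every Cat-/- library but still counted, and the labels do not say which exons the allele deletes. The 7 osteocyte genes together took 0.188% (library 6) to 0.477% (library 7) of all counts, so the tissue held osteocyte RNA in every library. Skeletal muscle markers stood apart in 3 wild-type libraries, with 2.81% (library 8), 3.18% (library 9) and 3.41% (library 12) of all counts, against 0.124% to 1.80% in the other 9. Replicate libraries differed by more than sampling noise in every pair.

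Per kb of exon, Mepe and Sost were the most abundant of the 7 transcripts. Mepe averaged 628 ± 178 CPM per kb and Sost 538 ± 149.8 CPM per kb (SD, n = 12 libraries), and Mepe was above Sost in 10 of 12 libraries. Dmp1 followed with 224 ± 43.0 CPM per kb and was below Sost in every library, although the ranges of both genes overlapped. Phex had 22.0 ± 6.37 CPM per kb, Fam20c 8.69 ± 1.18 CPM per kb and Pdpn 6.00 ± 1.27 CPM per kb, and Fam20c was above Pdpn in 11 of 12 libraries. The Mepe and Sost ranges overlapped, as did those of Fam20c and Pdpn, while Dmp1 and Phex, Phex and Fam20c, and Pdpn and Fgf23 had ranges that did not overlap. Fgf23, at 0.639 ± 0.221 CPM per kb, was the lowest and rested on only 11 to 44 counts per library.

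**Figure D1:**
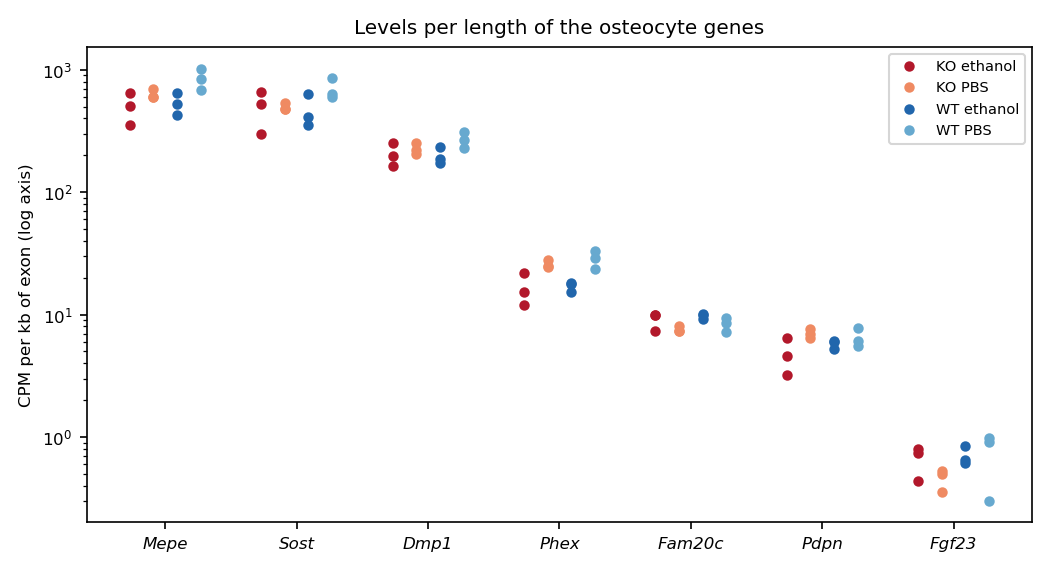
Level of each of the 7 genes in CPM per kb of exon (log axis), 1 point per library, coloured by group. Mepe and Sost lie highest, at 628 and 538 CPM per kb on average over the 12 libraries, and Fgf23 lies lowest at 0.639 CPM per kb.

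Ethanol lowered 1 of the 7 transcripts past the test. Phex, the endopeptidase that restrains FGF23, fell to 0.615-fold after ethanol when both genotypes were averaged. The other 6 did not pass: Mepe, Pdpn, Sost and Dmp1 had negative log2 differences and Fam20c and Fgf23 positive ones. Over all tested genes 10.8% passed in the same averaged comparison, 5.81% as lower and 5.02% as higher, so 1 of 7 is close to the background. An unadjusted p under 0.05 was found for 5 of the 7 (Phex, Mepe, Pdpn and Dmp1 lower, Fam20c higher), and for 4758 of all 18161 genes tested. The members were chosen with earlier results of these data known, so this count carries no test. The median log2 difference of the 7 genes was -0.29, against -0.0088 over all genes tested. In bulk tissue, fewer osteocytes and less of a transcript per osteocyte cannot be told apart.

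Phex (ENSMUSG00000057457, chrX:157162075-157415312, minus strand, GRCm38) had 96.0, 137 and 75.2 CPM in Cat-/- libraries 4 to 6 with ethanol, against 155, 176 and 158 CPM in Cat-/- libraries 1 to 3 with PBS. In wild type it had 96.2, 114 and 112 CPM with ethanol (libraries 10 to 12), against 208, 149 and 182 CPM with PBS (libraries 7 to 9). Every ethanol library was below every PBS library in both genotypes; of all genes tested, 5.46% were lower without overlap in both. The averaged log2 difference was -0.70 (SE 0.14, 95% interval -1.01 to -0.40, adjusted p = 0.0116, edgeR's quasi-likelihood test with Benjamini-Hochberg adjustment).

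Taken by genotype, the Phex difference was -0.66 in Cat-/- mice (SE 0.19, adjusted p = 0.114) and -0.74 in wild type (SE 0.19, adjusted p = 0.101), and neither passed alone. No member passed in either genotype, where 1.87% of all genes passed in Cat-/- mice and 1.26% in wild type (101 higher and 128 lower; 111 and 75 with upper-quartile factors). DESeq2 called Phex in both genotypes (adjusted p = 0.0114 in Cat-/- and 0.0054 in wild type). Without library 5, Phex passed in Cat-/- mice (-0.93, adjusted p = 0.0226), and without library 5 or 6 it passed in wild type, whose own libraries were unchanged (adjusted p = 0.0463 and 0.0460). The averaged call was kept in 21 of 22 alternatives. It was lost when the 3 libraries richest in muscle RNA (8, 9 and 12) were left out together, which leaves 1 wild-type PBS library: the difference was then -0.81 (adjusted p = 0.0727). With the muscle markers as a covariate it was -0.70 (adjusted p = 0.0130).

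Osteoblast marker transcripts were also lower in the ethanol libraries of Cat-/- mice, and their wild-type ranges overlapped. These 8 genes (Col1a1, Col1a2, Alpl, Bglap, Ibsp, Sp7, Runx2 and Pth1r) took 1.14% to 2.56% of all counts in Cat-/- libraries with ethanol, against 3.53% to 4.16% with PBS. In wild type they took 1.11% to 2.45% with ethanol, against 2.25% to 2.85% with PBS. All 8 had a negative averaged log2 difference and 5 passed, where 5.81% of all genes passed as lower. None was at 0 throughout the 12 libraries. The 6 chondrocyte markers took 0.00822% to 0.0217% of all counts in Cat-/- libraries with ethanol, against 0.0261% to 0.0331% with PBS, and 0.00923% to 0.0256% in wild type with ethanol, against 0.0202% to 0.0283% with PBS. The 8 osteoclast markers took 0.191% to 0.230% in Cat-/- libraries with ethanol, against 0.167% to 0.200% with PBS, and 0.235% to 0.330% in wild type with ethanol, against 0.166% to 0.191% with PBS. The groups did not overlap for chondrocyte markers in Cat-/- mice and for osteoclast markers in wild type. No marker of these lists was at 0 throughout the 12 libraries. The part of these cell types in the Phex result was not tested.

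**Figure D2:**
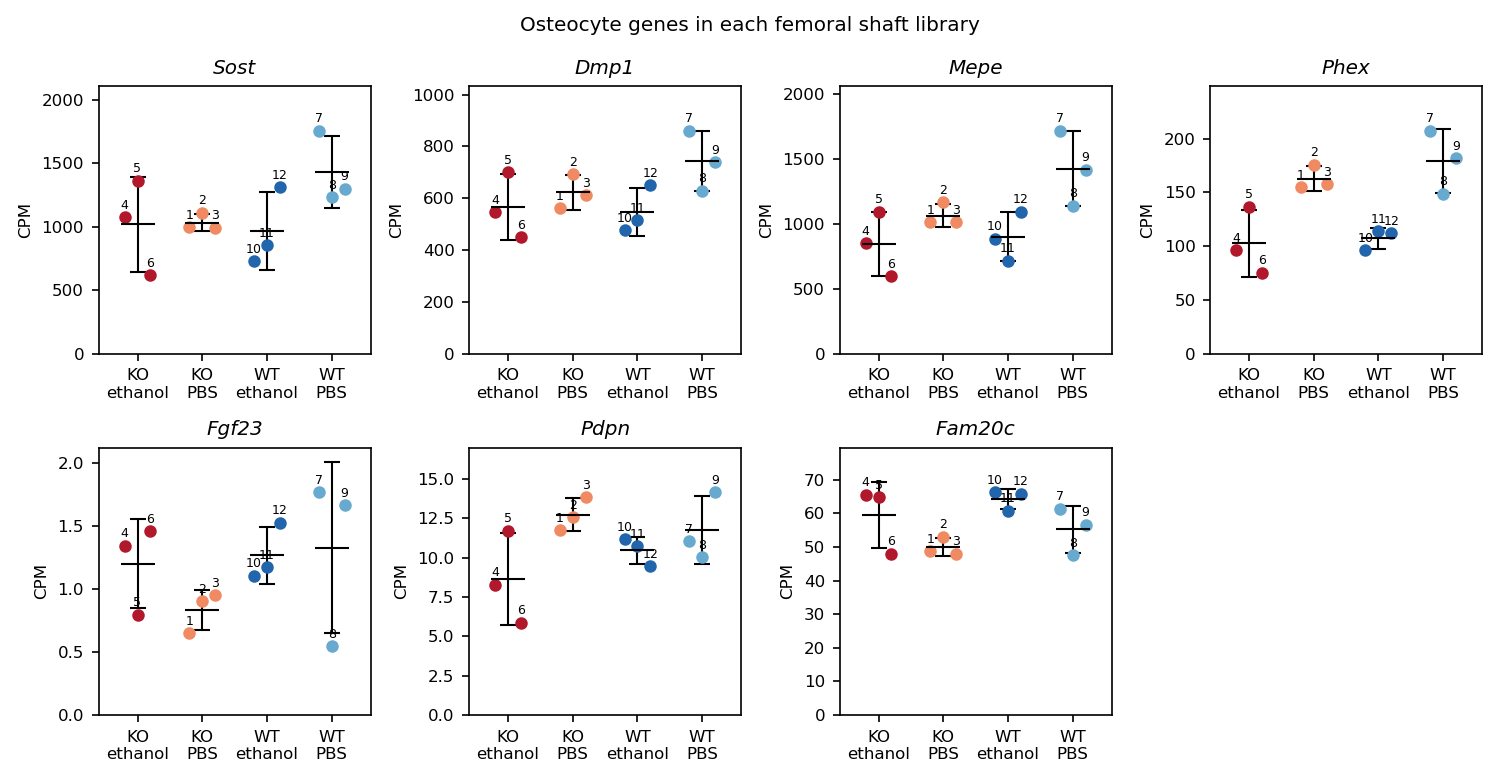
Level in CPM of each of the 7 genes in every library (points, numbered by library), with the mean and SD of each group of 3, in the order Cat-/- ethanol, Cat-/- PBS, wild-type ethanol, wild-type PBS. In the Phex panel the ethanol points (75.2 to 137 CPM) lie below the PBS points (149 to 208 CPM), whereas the Sost, Dmp1, Fgf23 and Fam20c panels show overlap between ethanol and PBS in both genotypes.

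DMP1 and MEPE are acidic matrix proteins of the SIBLING family, whose genes form a cluster on chromosome 5. Mepe (ENSMUSG00000053863, chr5:104325329-104338611, plus strand) had 848, 1091 and 596 CPM in Cat-/- libraries 4 to 6 with ethanol, against 1009.9, 1166 and 1009.6 CPM in libraries 1 to 3 with PBS. Its wild-type values were 884, 715 and 1092 CPM with ethanol, against 1716, 1138 and 1414 CPM with PBS. The wild-type groups did not overlap and the Cat-/- groups did, library 5 being higher than 2 of the PBS libraries. Mepe was at -0.50 averaged over genotypes (SE 0.16, adjusted p = 0.0798), -0.33 in Cat-/- mice (SE 0.23, adjusted p = 0.545) and -0.67 in wild type (SE 0.23, adjusted p = 0.194). It passed in the averaged comparison with DESeq2 (adjusted p = 0.0106) and with edgeR when library 5 was left out (-0.61, adjusted p = 0.0361). In wild type Mepe passed with DESeq2 (-0.65, adjusted p = 0.0447). Without libraries 8, 9 and 12 its wild-type value was -1.09, and the only PBS library left was library 7, which had its highest level (1716 CPM).

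Dmp1 (ENSMUSG00000029307, chr5:104202613-104214102, plus strand) had 547, 701 and 449.7 CPM in Cat-/- libraries with ethanol, against 561, 693 and 612 CPM with PBS. Wild-type levels were 476, 514 and 649 CPM with ethanol, against 861, 629 and 739.9 CPM with PBS. Ethanol and PBS overlapped in both genotypes, in wild type only through library 12 with ethanol and library 8 with PBS, both rich in muscle RNA. The averaged log2 difference was -0.29 (SE 0.12, adjusted p = 0.165), with -0.14 in Cat-/- mice and -0.44 in wild type (adjusted p = 0.795 and 0.243).

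The SIBLING cluster of Dspp, Dmp1, Ibsp, Mepe and Spp1 spans 270.3 kb, with 111.2 kb between the end of Dmp1 and the start of Mepe, so their 5 genes could be read side by side. Ibsp, which encodes bone sialoprotein and lies between them, had 619 ± 26.8 CPM in Cat-/- mice with ethanol and 944 ± 154 CPM with PBS (SD, n = 3 each). In wild type Ibsp had 598 ± 159.9 CPM with ethanol and 718 ± 113 CPM with PBS, and its averaged difference was -0.44 (adjusted p = 0.0660). Spp1, which encodes osteopontin and closes the cluster, was at -0.069 (adjusted p = 0.670), with 1313 ± 143 CPM in Cat-/- with ethanol, 1441 ± 202 CPM in Cat-/- with PBS, 1441 ± 165 CPM in wild type with ethanol and 1444 ± 88.2 CPM in wild type with PBS. Dspp, the dentin gene, had 0 or 1 count per library and was not tested. No gene of the cluster passed the averaged test.

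FGF23, the hormone by which bone lowers phosphate reabsorption in the kidney, was near the limit of what these libraries could show. Fgf23 (ENSMUSG00000000182, chr6:127072902-127081408, plus strand) had 1.35, 0.798 and 1.46 CPM in Cat-/- libraries with ethanol, against 0.651, 0.903 and 0.951 CPM with PBS. In wild type it had 1.11, 1.17 and 1.53 CPM with ethanol, against 1.77, 0.547 and 1.67 CPM with PBS. The groups overlapped in both genotypes, and the wild-type PBS libraries alone, with library 8 lowest, ranged more widely than the 6 ethanol libraries together. The averaged log2 difference was 0.22 (SE 0.27, adjusted p = 0.660), and its 95% interval from -0.36 to 0.81 leaves room for a change in either direction.

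Fam20c, the kinase gene (ENSMUSG00000025854, chr5:138754514-138810077, plus strand), was the other one with a positive difference. It had 65.6, 64.9 and 48.0 CPM in Cat-/- libraries with ethanol, against 48.8, 53.1 and 48.0 CPM with PBS. The wild-type libraries had 66.3, 60.9 and 65.9 CPM with ethanol, against 61.4, 47.5 and 56.7 CPM with PBS. Library 6 lay with the Cat-/- PBS libraries and library 7 with the wild-type ethanol libraries, so the groups overlapped in both genotypes. The averaged difference was 0.24 (SE 0.084, adjusted p = 0.0984), close to equal in Cat-/- mice (0.25, adjusted p = 0.325) and wild type (0.22, adjusted p = 0.401). Without library 6 it was 0.30 and passed (adjusted p = 0.0232).

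Genes that make, cut, sense or carry FGF23 and phosphate were read from a list of 13, of which 10 were tested and 4 passed in the averaged ethanol comparison, 1 higher and 3 lower (median -0.21; 5.02% of all genes passed as higher and 5.81% as lower). Pth1r, the parathyroid hormone receptor, fell to 55.9 ± 11.05 CPM in Cat-/- mice with ethanol, against 90.9 ± 11.2 CPM with PBS, and to 55.5 ± 7.81 CPM in wild type with ethanol, against 81.2 ± 5.504 CPM with PBS (SD, n = 3 each). Its averaged log2 difference was -0.62 (adjusted p = 0.0056); it is also 1 of the 8 osteoblast markers above. Galnt3, whose enzyme glycosylates FGF23 and protects it from cleavage, fell by 0.46 on the log2 scale (adjusted p = 0.0013), and Furin, a protease that cuts FGF23, rose by 0.16 (adjusted p = 0.0359). Slc20a2, a sodium-phosphate cotransporter, fell by 0.19 (adjusted p = 0.0413). Galnt3 passed in all 22 alternatives and Pth1r in all but the one without libraries 8, 9 and 12. Furin and Slc20a2 each lost the call in 9 of the 12 fits that left out 1 library, both together without library 1, 2, 3, 4, 6, 8, 9 or 12, and both without a low-count filter. In Cat-/- mice alone, where 1.87% of all genes passed, Galnt3 (-0.57, adjusted p = 0.0088) and Pth1r (-0.70, adjusted p = 0.0430) passed with edgeR. There Galnt3 lost the call in 1 of 23 alternatives and Pth1r in 13. Neither passed in wild type alone (adjusted p = 0.0684 for Galnt3 and 0.109 for Pth1r). Kl, the FGF23 co-receptor of the kidney, and the vitamin D hydroxylase genes Cyp27b1 and Cyp24a1 were below the filter on low counts.

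**Figure D3:**
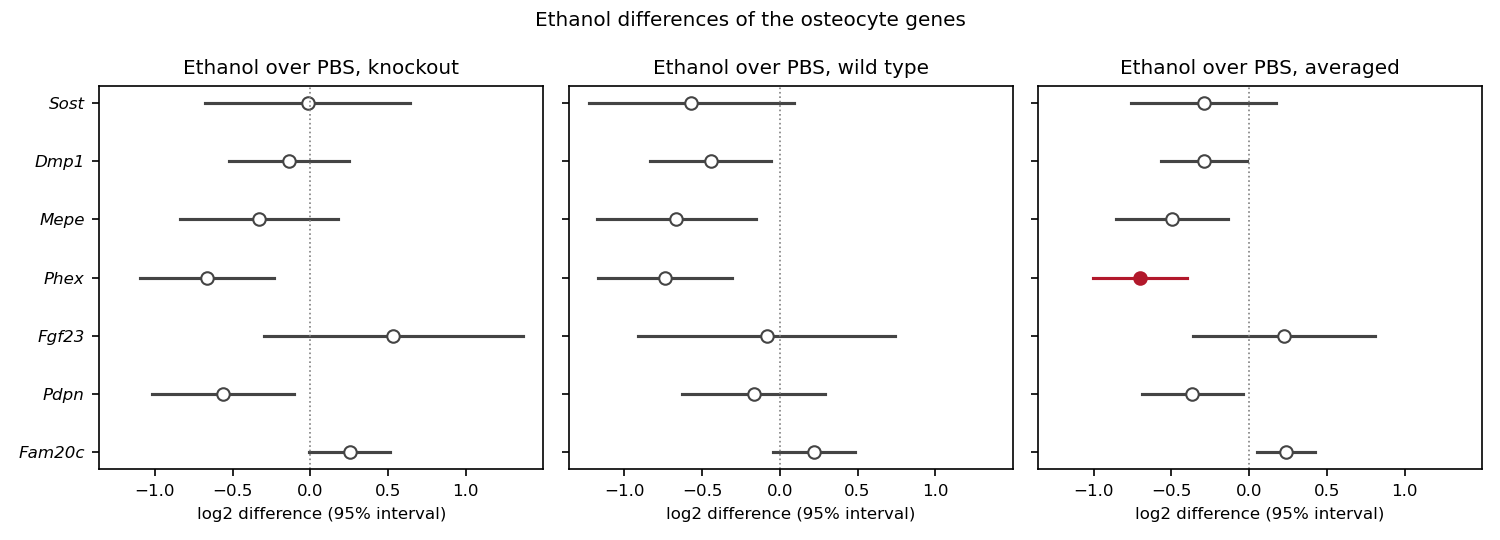
Log2 difference of each of the 7 genes between ethanol and PBS in Cat-/- mice, in wild type and averaged, with its 95% interval from edgeR; filled points have an adjusted p under 0.05. Phex in the averaged ethanol comparison, at -0.70, is the single filled point, and the intervals of Fgf23 are the widest.

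Sclerostin transcript, which encodes the Wnt inhibitor, varied widely between libraries of the same group. Sost (ENSMUSG00000001494, chr11:101962458-101967015, minus strand) had 1075, 1361 and 619 CPM in Cat-/- libraries 4 to 6 with ethanol, against 994, 1109.96 and 990.3 CPM in libraries 1 to 3 with PBS. Wild-type libraries had 728, 852 and 1312 CPM with ethanol, against 1756, 1233 and 1297 CPM with PBS. The Cat-/- ethanol libraries lay on both sides of the PBS libraries, and in wild type library 12 lay among the PBS libraries. Sost was at -0.019 in Cat-/- mice (SE 0.29, adjusted p = 0.993), -0.57 in wild type (SE 0.29, adjusted p = 0.389) and -0.29 averaged (SE 0.21, adjusted p = 0.428). Leaving out 1 library at a time moved the Cat-/- value between -0.28 and 0.24, the wild-type value between -0.85 (without library 12) and -0.39 (without library 7), and the averaged value between -0.44 (without library 12) and -0.16 (without library 6). Without libraries 8, 9 and 12 together the wild-type value was -1.14 and the averaged value -0.58. That fit leaves library 7 as the only wild-type PBS library, and library 7 had the highest Sost level of all 12 libraries (1756 CPM).

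The list of 10 genes that receive or regulate sclerostin held the co-receptor genes and the PTH-regulated path to Sost, and 9 were tested. In the averaged ethanol comparison 1 passed as higher and none as lower (median 0.0096; 10.8% of all genes passed). Sik3, a salt-inducible kinase of that path, rose to 84.7 ± 2.15 CPM in Cat-/- mice with ethanol, against 68.4 ± 1.44 CPM with PBS, and to 83.6 ± 2.99 CPM in wild type with ethanol, against 71.8 ± 1.63 CPM with PBS (SD, n = 3 each; averaged log2 difference 0.26, adjusted p = 0.0015). In Cat-/- mice alone Sik3 was at 0.31 and passed (adjusted p = 0.0126), but not without library 1, 2, 3 or 6. In wild type alone it was at 0.22 and did not pass (adjusted p = 0.0551), but passed in 6 alternatives, among them DESeq2 (adjusted p = 0.0031); the interaction was 0.089 (adjusted p = 0.999985). In the averaged comparison 2 of the 9 passed without library 6, 7, 10 or 12, where 1194 to 2152 of all genes passed. DESeq2 called 4 of the 9, and 2508 of the 16768 genes it tested.

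Of 10 known Wnt target genes, which sclerostin would hold down, 9 were tested. None passed with edgeR in the averaged ethanol comparison (median -0.12), where 10.8% of all genes passed. An unadjusted p under 0.05 was found for 3 of the 9, and for 4758 of all 18161 genes tested. Tcf7, a Wnt transcription factor, was at -0.52 (adjusted p = 0.0567) and Nkd1, a feedback inhibitor, at -0.42 (adjusted p = 0.0688). Tcf7 passed with edgeR when the blood cell markers (-0.56, adjusted p = 0.0023) or the muscle markers (adjusted p = 0.0432) were a covariate, with the filter of 5 CPM (adjusted p = 0.0499) and without library 5, 10 or 12. DESeq2 called 2508 of 16768 genes, among them 2 of the 9. Tcf7 was among those (adjusted p = 0.0097), and passed with limma-voom (adjusted p = 0.0379) and limma-trend (adjusted p = 0.0490); Nkd1 passed without library 8.

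Podoplanin, the mark of early osteocytes, had low levels. Pdpn (ENSMUSG00000028583, chr4:143267431-143299564, minus strand) had 8.28, 11.7 and 5.88 CPM in Cat-/- libraries with ethanol, against 11.8, 12.6 and 13.8 CPM with PBS. In wild type it had 11.2, 10.8 and 9.48 CPM with ethanol, against 11.1, 10.04 and 14.2 CPM with PBS. The Cat-/- groups did not overlap, by a margin of 11.72 against 11.75 CPM, and the wild-type groups did. Pdpn was at -0.56 in Cat-/- mice (SE 0.21, adjusted p = 0.200), -0.17 in wild type (SE 0.21, adjusted p = 0.756) and -0.37 averaged (SE 0.15, adjusted p = 0.143). Without library 5 the averaged value was -0.51 and passed (adjusted p = 0.0304). Of the lymphatic endothelial markers 3 were matched (Prox1, Lyve1 and Flt4), and none was at 0 throughout the 12 libraries. They summed to 48.3 to 56.9 CPM in Cat-/- with ethanol and 47.3 to 56.8 CPM in Cat-/- with PBS. In wild type they summed to 40.9 to 47.4 CPM with ethanol and 35.9 to 51.5 CPM with PBS. Their part in the Pdpn values was not tested.

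Counted by overlap, 2 of the 7 genes were lower in every ethanol library than in every PBS library of Cat-/- mice (Phex and Pdpn), where 16% of all genes were, and 2 of wild type (Phex and Mepe), where 9.06% were. No member was higher without overlap in either genotype, against 16.3% of all genes in Cat-/- mice and 7.32% in wild type.

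Loss of catalase was compared under each gavage, and no member passed in either comparison (0.011% of all genes passed in each). Under PBS, Sost was lower in the 3 Cat-/- libraries (990.3 to 1109.96 CPM) than in the 3 wild-type libraries (1233 to 1756 CPM), without overlap, 1 of 7 genes where 5.16% of all genes were lower and 8.98% higher without overlap. Its log2 difference was -0.47 (SE 0.29, adjusted p = 0.625). Mepe was at -0.42, Dmp1 at -0.26, Fam20c and Phex each at -0.14, Pdpn at 0.11 and Fgf23 at -0.68 (adjusted p from 0.605 to 0.864 over the 7).

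Under ethanol the Cat-/- and wild-type values were closer for every member but Pdpn, which was at 0.11 under PBS and -0.28 under ethanol. No member passed in the interaction given below. The differences under ethanol ran from -0.28 (Pdpn) to 0.079 (Sost), with adjusted p from 0.820 to 0.975. All 7 genes overlapped, where 4.04% of all genes were lower and 7.12% higher without overlap. These comparisons use the same libraries as the ethanol comparisons above and are not independent of them.

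Whether ethanol acted differently in Cat-/- mice was tested as an interaction, and no member passed (adjusted p = 0.999985 for each; 0% of all genes passed with edgeR and 1.98% had an unadjusted p under 0.05, while DESeq2 called 1 gene). The interaction was 0.55 for Sost (95% interval -0.38 to 1.48), 0.074 for Phex (-0.53 to 0.68) and -0.39 for Pdpn (-1.04 to 0.26). The intervals were wide for Fgf23 (-0.56 to 1.79) and Mepe (-0.38 to 1.05) as well. They are not adjusted for the number of genes tested, so they do not show what size of difference was detectable for any member.

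Within groups several of the 7 genes, Sost, Dmp1, Mepe and Phex most often, were high or low in the same library. Library 6 had the lowest level of the Cat-/- ethanol libraries for 6 of 7 genes and library 5 the highest for 5. Fgf23 went the other way there, lowest in library 5 and highest in library 6. In the wild-type PBS group library 7 was highest for 6 genes and library 8 lowest for all 7. Library 2 was highest of the Cat-/- PBS libraries for 5 genes and library 12 of the wild-type ethanol libraries for 4. The lowest levels were split in both groups. In Cat-/- with PBS they fell in library 1 for 4 genes and library 3 for 3. In wild type with ethanol they fell in library 10 for 4, library 11 for 2 and library 12 for 1. The widest single departure of Sost from its mean over the libraries was in library 6 (-0.79 on the log2 CPM scale), followed by library 7 (0.71).

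**Figure D4:**
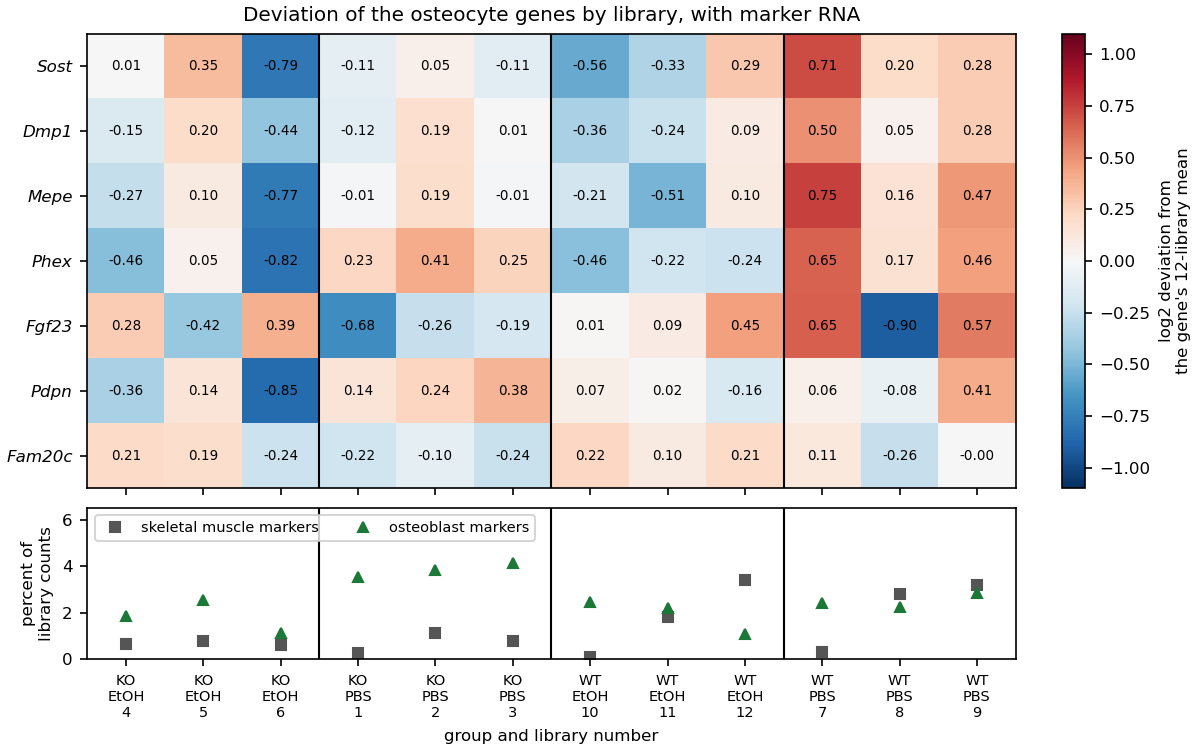
Top, departure of each of the 7 genes (rows) from its own mean log2 CPM over the 12 libraries (columns, by group), blue for lower and red for higher; bottom, the share of all counts taken by the osteoblast and skeletal muscle markers in each library. Library 7 is red and library 6 blue for Sost, Dmp1, Mepe and Phex, and the muscle share is highest in libraries 8, 9 and 12 (2.81% to 3.41%).

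Over the 12 libraries Sost, Dmp1, Mepe and Phex varied together, with Pearson correlations of log2 CPM between 0.75 (Sost and Phex) and 0.94 (Sost and Dmp1). Pdpn was nearest to Phex (0.78), and Fgf23 and Fam20c stood apart from those 4 (-0.19 to 0.26) and were nearest to each other (0.47). The libraries share group, depth and tissue composition, so these values describe the 12 libraries and carry no test.

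Among 11446 genes with a mean of at least 5 CPM (11447 for Fgf23), the genes most like each member over the 12 libraries were as follows. Phex was nearest to Ptprz1 (r = 0.98), a receptor phosphatase gene, then Cadm1 and Pcdh7, both adhesion genes. Mepe was nearest to Dkk1 (r = 0.96), which encodes another secreted Wnt inhibitor, then Pcsk6 and Tpbg. Dmp1 was nearest to Enpp1 (r = 0.97), whose enzyme makes the mineralisation inhibitor pyrophosphate, then Ndrg1 and Susd5. Sost was nearest to Tg (r = 0.97), the thyroglobulin gene, then Tgfb2 and Pianp. Pdpn was nearest to Sema3d (r = 0.96), then Plod2 and Rap1gap. Fam20c was nearest to Smad9 (r = 0.88), Zfp629 and Sema7a, and Fgf23 to Ildr2 (r = 0.83), Neurl4 and Pex6, both with weaker likeness.

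A list of 7 other genes described in osteocytes, all tested, had 3 that passed as lower and none as higher in the averaged ethanol comparison. Their median was -0.31, and 5.81% of all genes passed as lower. Bulk tissue does not show which cells carried these transcripts. Ptprz1 fell to 34.5 ± 9.03 CPM in Cat-/- mice with ethanol, against 58.2 ± 2.69 CPM with PBS, and to 35.9 ± 2.03 CPM in wild type with ethanol, against 64.2 ± 12.0 CPM with PBS (log2 difference -0.80, adjusted p = 0.0046). Hyou1, an endoplasmic reticulum chaperone gene, fell by 0.31 (adjusted p = 0.0033) and Cd44, a hyaluronan receptor gene, by 0.21 (adjusted p = 0.0430). The Cd44 call was lost in 12 of 22 alternatives, among them upper-quartile factors (adjusted p = 0.0712) and leaving out any 1 library other than 9 or 12; those of Ptprz1 and Hyou1 were kept in all 22. In wild type alone, where 1.26% of all genes passed, Hyou1 was the 1 gene of the list that did (-0.41, adjusted p = 0.0254), and it did not without library 2, 3, 8, 9, 10 or 12.

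Genes of mineral deposition were read from a list of 9, of which 8 were tested and 4 passed as lower in the averaged ethanol comparison (median -0.34; 5.81% of all genes passed as lower). Smpd3, whose enzyme neutral sphingomyelinase is needed for mineralisation, fell to 26.2 ± 13.4 CPM in Cat-/- mice with ethanol, against 93.2 ± 10.5 CPM with PBS, and to 33.1 ± 14.4 CPM in wild type with ethanol, against 68.5 ± 18.9 CPM with PBS (-1.44, adjusted p = 0.0243). Alpl, the alkaline phosphatase that removes pyrophosphate, fell by 0.84 (adjusted p = 0.0095). Phospho1, a phosphatase of matrix vesicles, fell by 0.65 (adjusted p = 0.0028), and Ank, a pyrophosphate exporter, by 0.25 (adjusted p = 0.0334). Without libraries 8, 9 and 12 only 2 passed, as without library 2, 3, 4 or 9. Without those 3 together Smpd3 was at -1.103 (adjusted p = 0.133) and Alpl at -0.75 (adjusted p = 0.146). The Ank call was lost in 8 of the 12 fits that left out 1 library, and that of Phospho1 in none. The fits without library 2, 3, 4 or 9 called 572 to 850 of all genes as lower. In Cat-/- mice alone, where 1.87% of all genes passed, Phospho1 passed with edgeR (-0.78, adjusted p = 0.0200). There it lost the call in 5 of 23 alternatives, and it did not pass in wild type alone (adjusted p = 0.0920).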

How the data were processed

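The authors deposited raw counts for each Ensembl gene as whole numbers, without normalization, judging from the values. Per the submitters' processing notes the tools were Trimmomatic 0.36, STAR 2.5.2b, featureCounts and Subread 1.5.2 with the build GRCm38; settings, strand use and the treatment of reads with several matches are not stated there. No member shares exon bases with another annotated gene. The other deposited table is a normalized signal, the authors' count divided by 1 factor per library, and was used in 1 alternative.

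Genes were filtered with filterByExpr (minimum count 10, total 15) and scaled by TMM factors (0.908 to 1.05); CPM are counts over these scaled totals, and CPM per kb divides by the exon length in GENCODE M21. An edgeR 4.0.16 quasi-likelihood model (R 4.3.3, robust, 1 coefficient per group, 8 residual degrees of freedom) gave ethanol minus PBS per genotype and averaged, Cat-/- minus wild type per gavage, and their interaction. Genes were called at a Benjamini-Hochberg adjusted p under 0.05 over all 18161 tested genes. All 7 members passed the filter, so the exact permutation test planned for filtered members was not needed. The total counts limit the precision of low genes such as Fgf23.

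Named genes were all 7 members and up to 4 called genes per list with the largest change (or 2 with the smallest p where none was called). The 3 genes most correlated with each member, among those kept for likeness, were named as well. Members and lists were chosen with earlier results of these data known. Other settings tried were RLE or upper-quartile factors, no filter or a stricter one (5 CPM in 3 libraries), DESeq2 1.42.0, limma-voom and limma-trend (limma 3.58.1), fits of only the groups compared, muscle or blood marker covariates, and leaving out libraries.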

Additional observations from a re-analysis of the deposited data

How the results depend on the processing

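Of 946 values of the 7 members' log2 differences under the alternatives, 904 kept direction and side of the threshold, 10 newly passed, 1 no longer passed and 31 changed sign. The 1 lost call was Phex averaged over genotypes without libraries 8, 9 and 12 (-0.81). In the averaged comparison 1 of the 7 members was called, where 1967 of all genes were. With DESeq2 these counts were 2 and 2508, and leaving out 1 library they were 1 to 3 and 1040 to 2152. In Cat-/- mice the number of members called was 0, 1 with DESeq2 and 0 to 1 leaving out 1 library. In wild type it was 0, 2 with DESeq2 and 0 to 1 leaving out 1 library. The counts over all genes in each genotype are given next.

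The number of all genes called in Cat-/- mice was 339, but 951 with DESeq2, 1677 with only the groups compared, 872 with the muscle covariate, 617 with the blood cell covariate, 1342 without libraries 8, 9 and 12, and 52 to 568 leaving out 1 library. In wild type it was 229, but 715 with DESeq2, 152 with limma-voom, 4 with only the groups compared, 492 with the muscle and 526 with the blood cell covariate, 37 without libraries 8, 9 and 12, and 35 to 320 leaving out 1 library. Averaged it was 1967, 2508 with DESeq2, and 1040 to 2152 leaving out 1 library. DESeq2 called 13 genes in place of 2 between genotypes under ethanol and 1 in place of 0 for the interaction. The cause of these differences was not tested.

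All sign changes were of values that did not pass. Without libraries 8, 9 and 12, averaged Fgf23 was -0.040, wild-type Tcf7 0.022, and under ethanol Cat-/- minus wild type was 0.073 for Fgf23 and 0.068 for Mepe. Wild-type Fgf23 was 0.098 with limma-trend and 0.045 with limma-voom. With the blood cell covariate Cat-/- minus wild type was -0.016 for Pdpn under PBS and 0.011 for Fgf23 under ethanol. The Fam20c interaction was -0.00098 with upper-quartile factors. Leaving out 1 library gave ranges of -0.32 to 0.0054 for Dmp1 and -0.28 to 0.24 for Sost in Cat-/- mice, -0.43 to 0.18 for Fgf23 in wild type, and -0.053 to 0.16 for Fam20c and -0.19 to 0.26 for Phex in the interaction. For Cat-/- minus wild type under ethanol they were -0.13 to 0.20 for Dmp1, -0.19 to 0.020 for Fam20c, -0.23 to 0.15 for Fgf23, -0.31 to 0.11 for Mepe, -0.33 to 0.12 for Phex and -0.19 to 0.37 for Sost.

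Groups of 3 pools set the width of every interval, and fits that leave 1 library in a group assume that it varies like the other groups. Fgf23 rests on at most 44 counts per library. No paired analysis was possible because the replicate numbers 1 to 12 are each used once, so the groups share no number.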

Other observations

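Osteoblast and osteocyte transcripts did not follow the same order over the groups. With PBS, the 8 osteoblast markers took 3.53% to 4.16% of all counts in Cat-/- libraries and 2.25% to 2.85% in wild-type libraries, whereas the 7 osteocyte genes took 0.282% to 0.321% in Cat-/- libraries and 0.291% to 0.477% in wild-type libraries. Among the wild-type ethanol libraries, library 12 had the lowest osteoblast share (1.11%) and the highest osteocyte share (0.309%). The osteocyte share rests mostly on Sost, Mepe and Dmp1, which averaged 1111, 1057 and 619 CPM over all libraries, against 138 CPM for Phex, the next highest. Of these wild-type ethanol libraries, Sost, Dmp1, Mepe and Fgf23 were highest in library 12, Phex in library 11, and Fam20c and Pdpn in library 10. Pdpn was lowest in library 12. The osteocyte shares overlapped. Neither contrast was tested as a difference between lists, and library 12 is also the richest in muscle RNA.

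Thyroglobulin (Tg), known as the precursor of thyroid hormone, averaged 65.0 CPM in these bone libraries. Of the genes kept for likeness, Tg had the profile nearest to Sost over the 12 libraries (r = 0.97, Spearman's rho 0.94). It was named by the rule on likeness and was not tested further.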
